A study of Homo sapiens with 4 samples.

Results

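Expression was compared between 2 cultures of CL1-0, a human lung adenocarcinoma cell line of low invasiveness, of which one carried a control vector and the other an AK4 vector. These are 2 of the 4 arrays of the study. The other arrays are from CL1-5, a more invasive line derived from CL1-0, with an AK4 shRNA or its non-silencing control. All 4 cultures were stably transduced and had been selected with puromycin for 2 weeks, so the controls carry a vector and its resistance as well. Nothing in the labels says whether a culture was 1 clone or a pool, or which promoter drove the AK4 vector. Of the 54675 probe sets on the array, 41091 had a single gene symbol and were no hybridisation control. They stood for 19775 genes, and each gene was read from its brightest probe set over the CL1-0 pair. Genes above a floor of 6.93 on 1 or both arrays of the pair are called measured, which 14824 genes, or 75.0%, were. Every group is 1 array. No ratio below therefore has a replicate error or a test, and a size of 2-fold or more, or 1 on the log2 scale, stands in for one. The question behind the comparison is which transcripts differ when AK4 is supplied from a vector to this line.

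AK4 is an adenylate kinase of the mitochondrial matrix, a family of enzymes that move phosphate groups between adenine nucleotides and so report on and buffer the energy state of the cell. The genes described first belong to the cell division programme. Their transcripts accumulate in G2 and mitosis, when kinases and cyclins drive entry into division, condensins and cohesins shape the chromosomes, kinetochores tie them to the spindle and kinesins move them apart. The genes described second are immediate early genes, which growth factors and stress switch on within minutes through MAP kinases and which encode short-lived transcription factors and feedback inhibitors of that signal.

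All 4 AK4 probe sets were slightly dimmer on the array that the labels give the AK4 vector, called the labelled AK4 array here. Probe set 204347_at had a signal of 37.9 on the control array and 34.6 on the labelled AK4 array, and 204348_s_at had 115 and 111. Probe set 225342_at had 87.0 and 73.3, and 230630_at had 12.4 and 11.7. The log2 ratios lay between -0.25 and -0.05. The position of the probe sets relative to the insert of the vector is not given in the sources used here, so the AK4 signal neither bears out the label nor contradicts it. In CL1-5 the same probe sets were lower with the shRNA, with log2 ratios between -1.25 and -0.88. Among relatives of AK4, the cytosolic AK1 was at 209 on the control array and 144 on the other, and the matrix enzyme AK3 was at 487 and 500. The 23 measured genes of adenylate kinases and nucleotide phosphotransfer had a median log2 ratio of 0.04. Of these, 0 were lower by 2-fold or more and 1 (4.35%) was higher by as much, where 3.29% of all measured genes were. The 1 member was CMPK2, a mitochondrial nucleotide kinase, at 8.30 on the control array and 17.7 on the other, close to the floor.

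The labels call the cells type II alveolar cells, the cells that make lung surfactant. Of 9 markers of that cell type with a probe set, 8 were above the floor on the control array and 7 on the labelled AK4 array, mostly at dim signals. The surfactant protein genes SFTPB and SFTPC were at 38.8 and 28.2 on the control array and at 34.0 and 30.8 on the other, and SLC34A2, a phosphate carrier of these cells, was at the floor on both. The brightest marker was LAMP3, at 210 and 160. The epithelial genes EPCAM and CDH1 were at the floor on the control array and at 9.46 and 9.81 on the other, whereas the mesenchymal filament gene VIM was at 4957 and 5297. On the control array 5 of 8 epithelial markers were above the floor with a summed signal of 60.4, and on the other 7 with 72.7. Of 9 leukocyte markers 4 and 5 were above the floor, with sums of 39.7 and 52.3. PTPRC, which marks all leukocytes, was at the floor on both arrays. Of 8 endothelial markers 5 were above it on each array, with sums of 52.6 and 51.2, and of 9 fibroblast markers 4 and 3, with sums of 92.0 and 88.9. Of 8 neuroendocrine markers 5 were above it on each array, with sums of 195 and 254. The brightest of them was CHGB, at 76.4 and 147. The type II markers had sums of 410 and 348.

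Control probes differed within the CL1-0 pair. The ratio of 3' to 5' signal was 6.04 for ACTB and 1.25 for GAPDH on the control array, and 6.54 and 1.54 on the labelled AK4 array. In CL1-5 it was 1.34 to 1.61 for ACTB. The BioB spike-in probe sets had a mean signal of 783 on the control array and 307 on the other. Their part in the ratios was not tested. The share of probe sets above the floor was 56.6% and 57.6%. The deposited value was identical on both arrays for 8.23% of probe sets within the CL1-0 pair and for 6.01% within the CL1-5 pair, and for 0 probe sets between arrays of different lines. Levels are therefore not compared between the lines, only ratios within each.

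Across the measured genes, 488, or 3.29%, were higher by 2-fold or more on the labelled AK4 array and 174, or 1.17%, lower by 2-fold or more, so that 73.7% of these genes were on the higher side. The median log2 ratio over all measured genes was 0.05, and 56.2% of them had a ratio above 0. These shares are the background for every list count given here. Averaging the probe sets of each gene gave 247 higher genes. Of the 662 genes past 2-fold, 325 kept that size and direction then, and 330 with the median of their probe sets. Of 5 brightness bins of equal size, the next-to-dimmest held the most higher genes, 5.53% of its genes against 2.02% in the brightest. Lower genes made up 1.18% and 1.82% of the same bins. In the CL1-5 pair, 12 of 14971 genes (0.0802%) were higher by 2-fold or more with the AK4 shRNA and 2 (0.0134%) lower by 2-fold or more.

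**Figure D1:**
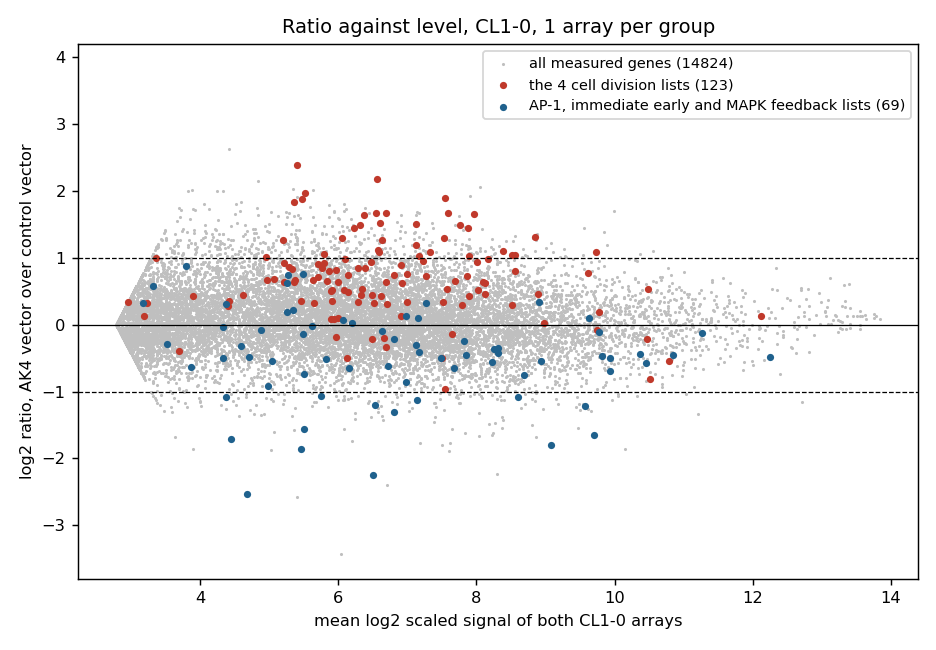
Log2 ratio of the labelled AK4 array over the control vector array (vertical) against the mean log2 scaled signal of both arrays (horizontal), for 14824 measured genes in grey, 123 genes of the 4 cell division lists in red and 69 genes of the AP-1, immediate early and MAPK feedback lists in blue. Dashed lines mark 2-fold. The red points lie mostly above 0 at mid-range signals and the blue points mostly below 0 over the whole range.

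Cell division genes stood higher on the labelled AK4 array as a group. Of 123 measured genes on 4 lists of kinetochore, mitotic kinase and cyclin, spindle and chromosome structure genes, 34 were higher by 2-fold or more, 0 lower by as much and 110 had a ratio above 0. The median log2 ratio was 0.67, against 0.05 for all measured genes, and 3.29% of all measured genes were higher by 2-fold or more. With the mean of probe sets 23 members were higher by 2-fold or more and the median was 0.56, and with their median 28 and 0.58. In the CL1-5 pair, 0 of the 122 measured members passed 2-fold in either direction and the median was 0.01. Only 0.0802% of all measured genes were higher and 0.0134% lower by as much in that pair, so this 0 says little. These lists were drawn up with earlier results of the same arrays known, so their direction is not independent evidence.

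Many promoters of cell division genes hold a CCAAT box, which binds the factor NF-Y, and a cell cycle homology region with the core TTTGAA or TTCGAA, which binds the MuvB complexes that silence these genes early in the cell cycle and switch them on in G2. Stretches of 130 bases are shown for 5 division genes higher by 2-fold or more, picked as examples with and without a core, from 110 bases before the annotated start to 20 after it, from RefSeq on build GRCh38.p14. Capitals mark CCAAT and TTTGAA or TTCGAA on either strand. SPC25 (chr2:168890411-168890540, minus strand), DLGAP5 (chr14:55191566-55191695, minus strand) and NUSAP1 (chr15:41332771-41332900, plus strand) hold both. NEK2 (chr1:211675602-211675731, minus strand) and KIF20A (chr5:138179002-138179131, plus strand) hold CCAAT and neither core. Of other genes with large ratios, TOP2A holds CCAAT alone in this stretch and CDK1 none of these letters.
SPC25: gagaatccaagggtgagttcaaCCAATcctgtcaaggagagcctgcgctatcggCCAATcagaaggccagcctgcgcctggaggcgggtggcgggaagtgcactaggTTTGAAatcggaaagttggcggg
DLGAP5: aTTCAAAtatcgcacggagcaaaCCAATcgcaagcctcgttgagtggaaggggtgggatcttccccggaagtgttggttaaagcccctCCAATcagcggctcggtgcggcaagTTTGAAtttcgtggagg
NUSAP1: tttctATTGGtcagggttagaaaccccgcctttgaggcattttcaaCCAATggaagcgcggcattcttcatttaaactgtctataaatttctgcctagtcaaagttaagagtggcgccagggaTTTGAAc
NEK2: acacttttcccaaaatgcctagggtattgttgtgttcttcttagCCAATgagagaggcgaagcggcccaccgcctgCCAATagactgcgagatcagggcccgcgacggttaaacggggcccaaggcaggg
KIF20A: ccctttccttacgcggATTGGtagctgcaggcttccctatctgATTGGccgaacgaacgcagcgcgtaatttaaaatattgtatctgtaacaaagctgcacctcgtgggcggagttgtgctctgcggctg

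Over the 106 division genes with a RefSeq promoter of 300 bases, 73, or 68.9%, held TTTGAA or TTCGAA on either strand, against 19.5% of all 27305 genes with such a promoter. CCAAT was present in 71.7% of them and in 39.7% of all. Division genes with and without the core had close medians. The median log2 ratio was 0.68 for the 71 measured genes with TTTGAA or TTCGAA, of which 18 were higher by 2-fold or more, and 0.69 for the 32 without, of which 11 were. Of all genes higher by 2-fold or more with a promoter, 19.7% held the core, against 15.5% of the 11820 measured genes with one. Seen the other way, 4.36% of measured genes with the core and 3.27% of those without it were higher by 2-fold or more. A match describes these letters and shows no binding.

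At the kinetochore, the protein plate that couples each chromosome to spindle microtubules, 11 of 39 measured members were higher by 2-fold or more and 34 had a ratio above 0, with a median of 0.72. With the mean of probe sets 6 members passed and the median was 0.45, and with their median 7 and 0.44. The members furthest from 0 are subunits of the NDC80 complex, the microtubule clamp of the kinetochore. SPC25 was at 18.5 on the control array and 97.2 on the labelled AK4 array, NUF2 at 44.6 and 201, and NDC80 itself at 23.2 and 91.3. These are ratios of 5.25-fold, 4.51-fold and 3.94-fold. The remaining subunit of this complex, SPC24, was at 21.8 and 44.1, a log2 ratio of 1.02. It is named after its value was seen, to complete the complex, and was at 0.79 after quantile normalization and 0.57 with the mean of its probe sets.

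The spindle checkpoint kinases TTK and BUB1, which hold cells in metaphase until every chromosome is attached, were at 47.4 and 42.5 on the control array and at 133 and 105 on the other. The centromere proteins CENPU and CENPC had log2 ratios of 1.3 and 1.27, and SGO2, a guardian of centromeric cohesion, had 1.12. BUB1 rests on 1 of its probe sets, and its ratio was 0 with the median of all of them. For contrast, the MIS12 complex subunit PMF1 was at 261 on the control array and 134 on the other, the lowest ratio of the list at -0.96.

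Among kinases and cyclins of mitosis, 8 of 27 measured genes were higher by 2-fold or more and 22 had a ratio above 0, with a median of 0.64. CDK1, the kinase that drives entry into mitosis, was at 58.3 on the control array and 185 on the labelled AK4 array. Its partner cyclins CCNA2, CCNB1 and CCNB2 were at 52.3, 261 and 63.7 on the control array and at 167, 540 and 154 on the other. The kinase and all 3 cyclins were thus higher by 2-fold or more on the same array, although CCNB2 was at 0 with the median of its probe sets.

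The centrosome kinase NEK2 was at 96.8 on the control array and 361 on the other, a ratio of 3.73-fold. AURKA, a kinase of spindle assembly, was at 142 and 389, and BIRC5, the survivin subunit of the chromosomal passenger complex, at 129 and 363. PBK, a mitotic kinase, had a log2 ratio of 1.20. Some regulators stood near or below 0. FOXM1, a transcription factor of the G2 programme, was at 57.6 and 61.4, and the CDK1-inhibiting kinases WEE1 and PKMYT1 had log2 ratios of -0.50 each, all named for contrast. PLK1, a kinase needed throughout mitosis, was at 26.6 and 42.8 and under 2-fold.

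Of the kinesins, spindle and cytokinesis proteins, 7 of 31 measured genes were higher by 2-fold or more and 30 had a ratio above 0, with a median of 0.74. KIF20A, a kinesin of the midzone and cytokinesis, was at 23.2 on the control array and 85.6 on the labelled AK4 array. The spindle proteins DLGAP5 and NUSAP1 were at 21.7 and 108 on the control array and at 77.1 and 344 on the other. The kinesins KIF18B and KIF4A had log2 ratios of 1.45 and 1.03, the spindle protein HMMR 1.32 and FAM83D 1.06. The exception below 0 was KIF23, a kinesin of cytokinesis, at 66.8 and 59.0.

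For chromosome structure and anaphase, 8 of 26 measured genes were higher by 2-fold or more and 24 had a ratio above 0, with a median of 0.65. The higher members numbered 4 with the mean of probe sets and 5 with their median. TOP2A, the topoisomerase that untangles sister chromatids, was at 141 on the control array and 446 on the labelled AK4 array. The condensin subunit NCAPG was at 46.8 and 146, and its log2 ratio of 1.63 was 0.79 without the _x_at and _s_at probe sets, which can match several transcripts. CDCA3, a mitotic entry factor, was at 57.2 and 164. The nuclear envelope genes LMNB1 and LBR had log2 ratios of 1.51 and 1.11.

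FBXO5, which restrains the anaphase-promoting complex, and PTTG1, the securin that complex destroys, each had a log2 ratio of 1.09. The cohesin subunit SMC3 was at 1.04, and at 0.21 with the median of its probe sets. The proliferation marker MKI67, named for contrast, was at 19 on the control array and 24.4 on the other. UBE2S, an enzyme that extends ubiquitin chains for the anaphase-promoting complex, was the lowest of the list at 1929 and 1102.

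Several of these division genes were under 2-fold in another reading. With probe sets averaged, CENPU was at 0.73, SGO2 at 0.84, TOP2A at 0.87, FBXO5 at 0.88, AURKA at 0.95 and CDCA3 at 0.99. After quantile normalization FAM83D was at 0.90 and KIF4A at 0.96, and BIRC5 was at 0.97 without the _x_at and _s_at probe sets.

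**Figure D2:**
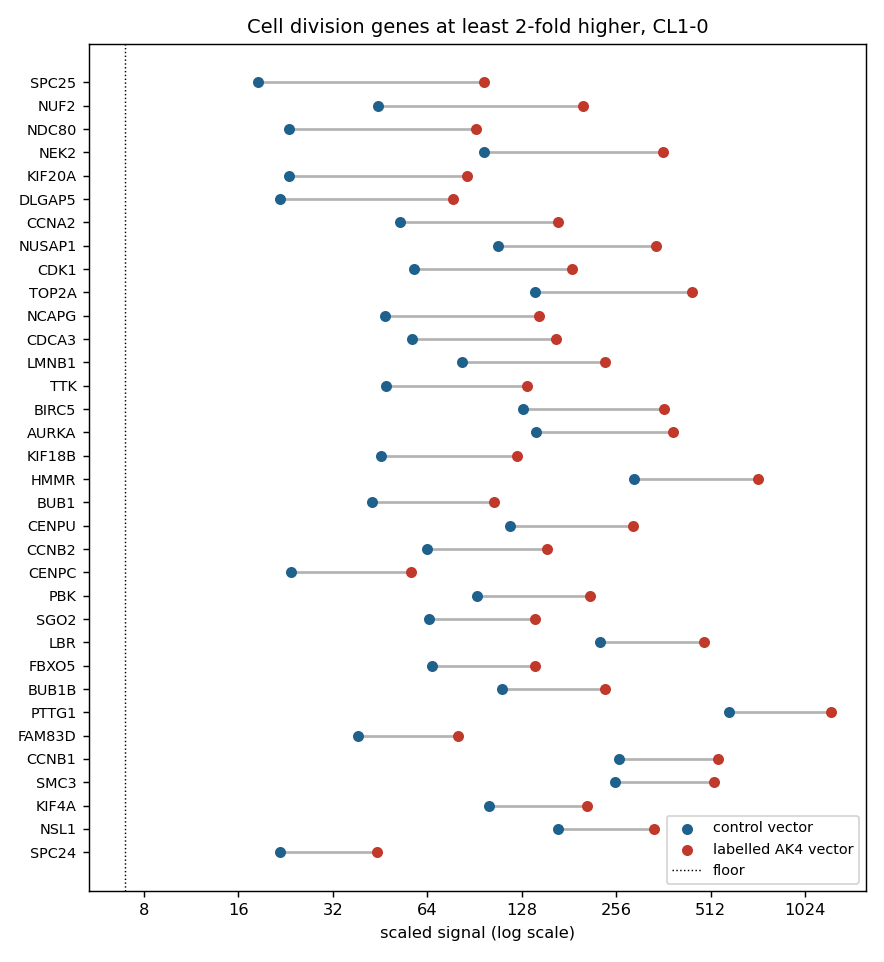
Scaled signal (horizontal, log scale) of the 34 cell division genes that were higher by 2-fold or more, with the control vector array in blue and the labelled AK4 array in red, 1 array each and sorted by ratio. Every gene lies above the floor (dotted line) on both arrays, and SPC25, NUF2 and NDC80 have the widest gaps.

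DNA replication genes had a median of 0.18, nearer to that of all genes. Of 50 measured members of the origin and fork list, 5 (10%) were higher by 2-fold or more, where 3.29% of all measured genes were. In this list 0 were lower by as much and 33 were above 0. UHRF1, which keeps DNA methylation through replication, was at 88.0 on the control array and 214 on the labelled AK4 array. The polymerase subunit POLD1 was at 22.2 and 50.2, and the helicase subunits MCM3 and MCM4 had log2 ratios of 1.05 and 1.15. PRIM2, a primase subunit, was at 11.4 and 23.5, close to the floor. MCM4 was at 0.12 without the _x_at and _s_at probe sets, PRIM2 at 0.49 under a 60th-percentile floor, and MCM3 and POLD1 at 0.95 and 0.93 after quantile normalization, when 2 members passed. The list median was 0.33 with the median of probe sets. MCM7 of the same helicase, named for contrast, was at 530 and 301. The E2F site TTTCGCG or TTTGGCG, on either strand, was present in 40.9% of 44 replication promoters and in 3.85% of all, and TTTGAA or TTCGAA in 4.55% of the replication promoters.

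Among DNA repair genes, 7 of 32 measured members, or 21.9%, were higher by 2-fold or more, where 3.29% of all measured genes were. None was lower by as much. The median was 0.46, and 0.29 with either the mean or the median of probe sets, when 5 members passed 2-fold, and 4 passed after quantile normalization. UNG, the glycosylase that removes uracil from DNA, was at 38.0 on the control array and 126 on the labelled AK4 array. The checkpoint kinases CHEK2 and CHEK1 had log2 ratios of 1.36 and 1.10, and the homologous recombination genes RAD51AP1, BRIP1 and MND1 had 1.19, 1.17 and 1.13. FANCL, the ubiquitin ligase of the Fanconi anaemia pathway, was at 91.9 and 227. CHEK1 was at 0.53 with the median of its probe sets, BRIP1 at 0.58 with their mean and MND1 at 0.98 after quantile normalization.

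The G1 phase, in which a cell commits to a new round of division, is covered by a list of its own. Of 27 measured G1 cyclins, E2F factors and CDK inhibitors, 1 (3.70%) was higher by 2-fold or more and 1 (3.70%) lower by as much. Over all measured genes these shares were 3.29% and 1.17%. The median of the list was -0.15. The lower gene was CCND2, a D-type cyclin that starts the cell cycle, at 685 on the control array and 145 on the labelled AK4 array. The higher gene was E2F8, a repressor of E2F targets, at 17.8 and 38.2, a ratio that was 0.85 after quantile normalization. Named for contrast, CDKN1A, the p21 inhibitor of cyclin-dependent kinases, was at 75.3 and 41.4 and E2F1 at 106 and 95.5.

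Clustered histone genes, whose bulk transcripts are made in S phase, stood lower. Of 27 measured genes, 0 were higher by 2-fold or more and 5, or 18.5%, lower by 2-fold or more, where 1.17% of all measured genes were. The median was -0.45 and 8 genes were above 0. Without the _x_at and _s_at probe sets 3 of 18 genes were lower and the median was -0.27. The linker histone H1-2 was at 2159 on the control array and 594 on the labelled AK4 array, and H4C8 at 338 and 97.3. H3C2 was at 22.3 on the control array and at the floor on the other, and H2BC5 and H2BC4 had log2 ratios of -1.37 and -1.29. Under a 60th-percentile floor H3C2 was at -0.41 and H2BC4 at -0.06. Members of this family are near-identical in sequence, so the split between them is uncertain. The CL1-5 pair had a median of -0.21 with 0 of 25 genes past 2-fold. Of all measured genes in that pair, 0.0802% were higher and 0.0134% lower by 2-fold or more. The p53 target list, with a median of -0.01 over 25 genes, had 2 genes lower by 2-fold or more. They were GADD45A, a growth arrest gene, at 3754 and 1492, and the kinase PLK2 at 514 and 186.

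**Figure D3:**
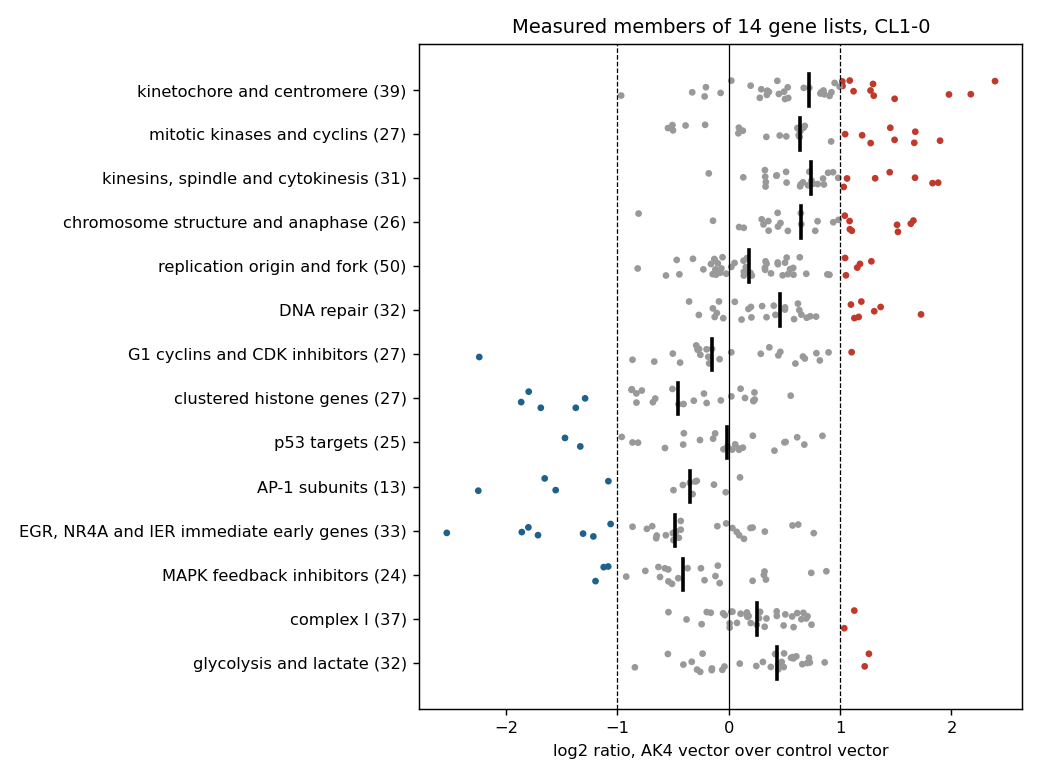
Log2 ratio of every measured member (points) of 14 gene lists, with the number of members in brackets and the median as a black bar. Points higher by 2-fold or more are red and points lower by 2-fold or more are blue. The 4 division lists have medians between 0.64 and 0.74, and the AP-1, immediate early, MAPK feedback and histone lists have medians between -0.48 and -0.35.

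Some immediate early genes were lower by 2-fold or more on the labelled AK4 array, while most, FOS, JUN and EGR1 among them, did not pass that size. Of 13 measured AP-1 subunits, which pair into a transcription factor that follows MAP kinase signals, 4 were lower by 2-fold or more, 0 higher by as much and 1 above 0, with a median of -0.35. The share of all measured genes lower by 2-fold or more was 1.17%. FOSL1 was at 197 on the control array and 41.5 on the other, FOSL2 at 77.8 and 26.5, and the small MAF protein MAFF at 1481 and 472. ATF3, a stress-induced member, was at 563 and 266, a log2 ratio of -1.08 that was -0.76 with the mean of its probe sets. The founding subunits FOS and JUN were at 26.9 and 213 on the control array and at 21.5 and 151 on the other, under 2-fold and named for contrast. In the CL1-5 pair the AP-1 median was 0.05, with ATF3 at 1.08 as the 1 gene past 2-fold. Of all measured genes in that pair, 0.0802% were higher and 0.0134% lower by 2-fold or more.

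Of 33 measured EGR, NR4A, IER and related genes, 7 (21.2%) were lower by 2-fold or more and 0 higher by as much. Over all measured genes, 1.17% were lower and 3.29% higher by 2-fold or more. On this list 10 genes were above 0 and the median was -0.48. PPP1R15A, the phosphatase subunit that reopens translation after stress, was at 1011 on the control array and 291 on the labelled AK4 array. The zinc finger factors EGR4 and EGR3 were at 83.6 and 39.7 on the control array and at 23.1 and 12.1 on the other. The nuclear receptor NR4A3 was at 61.9 and 10.7, the largest ratio of the list at -2.53, but was at 0 with the median of its probe sets.

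The Kruppel-like factors KLF5 and KLF10 had log2 ratios of -1.31 and -1.21, and GEM, a small GTP-binding protein, had -1.06. KLF5 was at -0.36 without the _x_at and _s_at probe sets. EGR1, named for contrast, was at 1157 and 820, and IER2 at 907 and 845. Neither passed 2-fold. RGS2, a brake on G protein signals, had the highest ratio of the list at 0.76. In the CL1-5 pair the median was 0.06 and 0 of 30 measured members passed 2-fold. Of all measured genes in that pair, 0.0802% were higher and 0.0134% lower by as much, so this 0 says little.

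Feedback inhibitors of MAP kinase signalling stood lower as well, with 18 of 24 measured genes below 0 and a median of -0.41. Of the 24, 3 (12.5%) were lower by 2-fold or more and 0 higher by as much. Over all measured genes, 1.17% were lower and 3.29% higher by 2-fold or more. PHLDA1, induced by this pathway, was at 141 on the control array and 61.5 on the labelled AK4 array. The MAP kinase phosphatases DUSP16 and DUSP10 were at 207 and 30.1 on the control array and at 95.3 and 14.2 on the other. With probe sets averaged, their log2 ratios were -0.65 and -0.80, which left PHLDA1 as the 1 gene past 2-fold. DUSP6, the ERK phosphatase, was at 2558 and 2356 and is named for contrast. The CL1-5 median was 0.01.

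The cyclic AMP response element TGACGTCA, a palindrome bound by CREB and ATF factors, was searched in the same RefSeq promoters, and 30 bases around it are shown for PPP1R15A (chr19:48872352-48872381, plus strand) and MAFF (chr22:38201929-38201958, plus strand) on GRCh38.p14, with the element in capitals.
PPP1R15A: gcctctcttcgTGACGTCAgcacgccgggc
MAFF: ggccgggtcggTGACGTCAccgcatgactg

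It was present in 7 of 54 promoters of the AP-1, immediate early and MAPK feedback genes, or 13%, against 2.25% of all promoters. Of the genes lower by 2-fold or more with a promoter, 12 of 137, or 8.76%, held it, and of those higher by 2-fold or more 11 of 406, or 2.71%. Among all measured genes with a promoter the share was 3.63%. The CArG box, bound by the serum response factor, was present in 16.7% of 24 EGR, NR4A and IER gene promoters and in 1.60% of all. These are descriptions of sequence, and the genes were taken with their ratios known.

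Agreement between different probe sets of a gene was used to single out ratios that rest on more than 1 set of oligonucleotides. Of 7180 genes with several measured probe sets, 23 (0.32%) had all of them higher by 2-fold or more and 19 (0.265%) all lower by 2-fold or more. Of the 23 higher genes 7 were on the division lists, with ratios that belong to those given above. The share of division genes among the 7180 was not counted. Of the 19 lower genes 0 were on these lists. This 0 was fixed beforehand, since 0 division genes were lower by 2-fold or more on the probe set they are read from. The probe sets of a gene share 1 hybridisation per culture, so their agreement is no replicate.

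The 3 probe sets of CDK1 had log2 ratios of 1.67, 1.61 and 1.32. The division genes NEK2, CCNA2, AURKA, NUSAP1, CCNB1 and HMMR had 2 probe sets each, between 1.01 and 1.90. Outside division, the glutathione transferase GSTA4 was at 123 on the control array and 349 on the labelled AK4 array, with ratios of 1.5 and 1.72. HADH, an enzyme of mitochondrial fatty acid oxidation, was at 41.1 and 109, with 3 probe sets between 1.20 and 1.41. CASP6, an executioner caspase, was at 73.1 and 176. The further higher genes under the naming rule were RUNDC3B, SMIM27, ZC4H2, TRIM52, GSTO2, POGLUT1, GSTM4, NT5DC1, BTN3A2, GSTM1 and CYFIP2. Their smallest ratios ran from 1.03 for CYFIP2 to 1.45 for RUNDC3B. BTN3A2 and TRIM52 were close to the floor, and at 0.22 and 0.47 under a 60th-percentile floor. All measured probe sets of GSTM1 and GSTM4 are _x_at or _s_at sets, which can match several transcripts.

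On the lower side PPP1R15A had -1.80 with both of its probe sets, H4C8 had -1.79 and -2.09, and MAFF had -1.65 and -1.96. ZYX, a focal adhesion protein, was at 549 on the control array and 205 on the labelled AK4 array. PALLD, an actin cross-linking protein, was at 207 and 87.6. CAV1, the coat protein of caveolae, was at 23.8 and 10.9, and at -0.65 under a 60th-percentile floor. The noncoding SNHG17 was at 1215 and 418, and the GTPase RAB11B of recycling endosomes at 104 and 17.4. That RAB11B log2 ratio was -2.58, while its other probe set was at 53.1 and 21.1, or -1.33. The further lower genes under the naming rule were SCN3B, PCGF1, AP1M2, SH2D3C, HOXA-AS2, RAMAC, INAFM2, H2BC5, MYADM and PEA15. Their smallest sizes ran from -1.33 for SCN3B to -1.03 for PEA15.

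**Figure D4:**
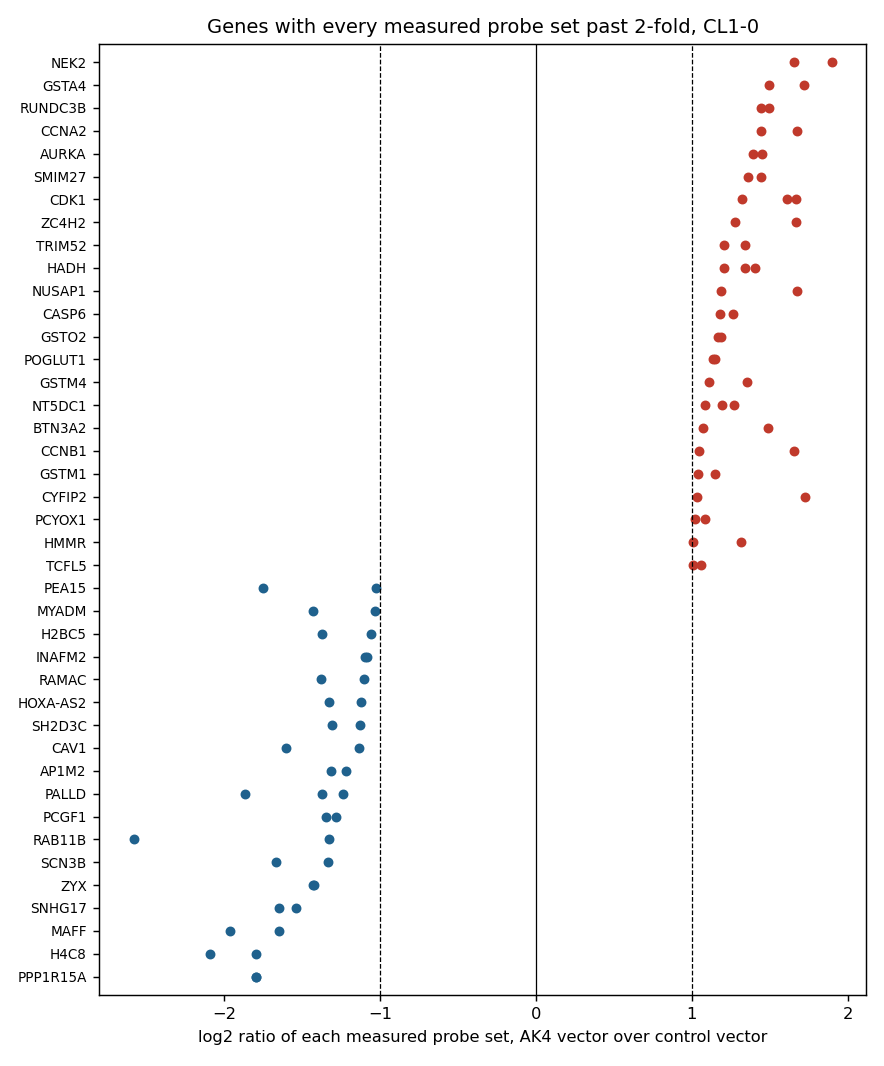
Log2 ratio of each measured probe set (points) of 41 genes whose measured probe sets were all at least 2-fold in 1 direction, with 23 higher genes in red and 18 lower genes in blue. Dashed lines mark 2-fold. NEK2 and PPP1R15A lie at the ends of the ordering by the smallest ratio.

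Energy metabolism, in which AK4 takes part, had positive medians with few genes past 2-fold. Over all measured genes, 3.29% were higher by 2-fold or more, 1.17% lower by as much and 56.2% above 0. Of 37 measured complex I genes 2 (5.41%) were higher by 2-fold or more and 30 above 0, with a median of 0.25. NDUFA5 was at 417 on the control array and 912 on the labelled AK4 array, and NDUFS7 at 291 and 598. The ratio of NDUFS7 changed sign to -0.36 without the _x_at and _s_at probe sets. Of 39 genes of complexes III to V, 1 (2.56%) was higher by 2-fold or more and 31 above 0, also with a median of 0.25. It was ATP5IF1, the inhibitor that stops ATP synthase from running in reverse, at 165 and 446. With probe sets averaged, the medians were both 0.17, no complex I gene passed 2-fold and NDUFA5 was at 0.56, and without the _x_at and _s_at probe sets ATP5IF1 was at 0.66.

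In the tricarboxylic acid cycle list, 1 of 25 measured genes (4%) was higher by 2-fold or more and 1 (4%) lower by as much. In all, 18 were above 0 and the median was 0.39. Over this list and the respiratory complexes together, 3.96% were higher by 2-fold or more, close to the 3.29% of all measured genes. The succinate-CoA ligase subunit SUCLG2 was at 198 on the control array and 444 on the labelled AK4 array, and the cytosolic transaminase GOT1 was lower at 1021 and 482. SUCLG2 was at 0.78 with the mean of its probe sets and GOT1 at -0.95 after quantile normalization. Of 32 measured genes of glycolysis and lactate, 2 (6.25%) were higher by 2-fold or more and 21 above 0, with a median of 0.43. With the mean or the median of probe sets 1 gene was higher and the median was 0.24. GPI, the glucose phosphate isomerase, was at 354 and 825, and PDK3, a kinase that shuts pyruvate dehydrogenase, at 38.3 and 91.6. PDK3 was at 0.26 with the median of its probe sets. The corresponding CL1-5 medians lay between -0.10 and 0.04. The AMPK list, the pathway that senses adenine nucleotides, covered 25 measured genes, none of them past 2-fold, with a median of 0.01. Its largest sizes were those of CAMKK1, an upstream kinase, at 0.92 and the regulatory subunit PRKAG2 at -0.82.

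Genes of invasion and of the epithelial state, the traits in which CL1-0 and CL1-5 differ, had medians near that of all genes. The mesenchymal list had a median of 0.10 over 19 genes, with TPM1 and TWIST2 higher by 2-fold or more and MYL9 lower by 2-fold or more. TPM1, a tropomyosin, was at 88.9 on the control array and 204 on the labelled AK4 array, and at 0.08 with the median of its probe sets. MYL9, a myosin light chain, was at 532 and 170, and at -0.84 without the _x_at and _s_at probe sets. TWIST2, a transcription factor of mesenchymal cells, was at 8.35 and 17.9, and at 0.10 under a 60th-percentile floor. The epithelial junction and keratin list covered 29 genes with a median of 0.02. Its 2 genes past 2-fold encode plaque proteins of cell junctions, JUP at 19.1 and 54.1 and PPL at 9.36 and 19.6, close to the floor. Matrix proteases and inhibitors had a median of -0.0010 over 26 genes, with TIMP2 at 96.3 and 248 and TIMP1 at 34.1 and 16. TIMP2 was at 0.62 with the median of its probe sets, and the list median was -0.36 over 16 genes under a 60th-percentile floor.

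Other signalling and matrix genes passed 2-fold singly. Among receptor tyrosine kinases and their ligands, 2 of 29 were higher by 2-fold or more and 3 lower by 2-fold or more, with a median of -0.16. They were FGFR3 at 1.23 and RET at 1.0, and MET at -1.13, VEGFC at -1.08 and FGF2 at -1.07. RET was near the floor and at 0.05 under a 60th-percentile floor, and with the mean of their probe sets FGFR3 was at 0.61 and FGF2 at -0.43. MET changed sign to 0.10 with the median of its probe sets, which left 1 gene lower. In the TGF-beta and BMP list, with a median of 0.06 over 32 genes, TGFBR2 was at -1.27 and TGFB1 at -1.10, and SKI was at 1.07 and SMAD6 at 1.04. TGFBR2 was at -0.63 with the mean of its probe sets. TGFB1 changed sign to 0.24 without the _x_at and _s_at probe sets, and with the median of their probe sets SMAD6 was at 0 and SKI at 0.23. Among integrins and matrix proteins, THBS1, a matricellular glycoprotein, was at 134 on the control array and 40.2 on the labelled AK4 array, a log2 ratio of -1.73 that was -0.58 with the median of its probe sets. The laminin LAMA5 was at 1.08 and the collagen COL6A1 at 1.09, and the latter changed sign to -0.26 with the median of its probe sets.

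Genes of the integrated stress response and amino acid supply were split, with 3 of 39 measured genes (7.69%) higher by 2-fold or more and 2 (5.13%) lower by as much, where 3.29% and 1.17% of all measured genes were. The median was -0.06. With either the mean or the median of probe sets, 1 gene was higher. ASNS, which makes asparagine, was at 1030 on the control array and 2213 on the labelled AK4 array. PHGDH, the first enzyme of serine synthesis, was at 380 and 804, and the cysteinyl-tRNA synthetase CARS1 at 912 and 1906. ASNS was at 0.55 with the mean of its probe sets and CARS1 at 0.56 with their median. The lower genes were PPP1R15A and ATF3, given above. On the antioxidant list 2 of 37 measured genes were higher and 2 lower by 2-fold or more, around a median of 0.14. The peroxidase GPX1 was at 156 and 353, whereas the haem oxygenase HMOX1 was at 2991 and 1462 and the sulfiredoxin SRXN1 at 1080 and 475. TKT, a transketolase, was at 1.01 and changed sign to -0.73 without the _x_at and _s_at probe sets.

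**Figure D5:**
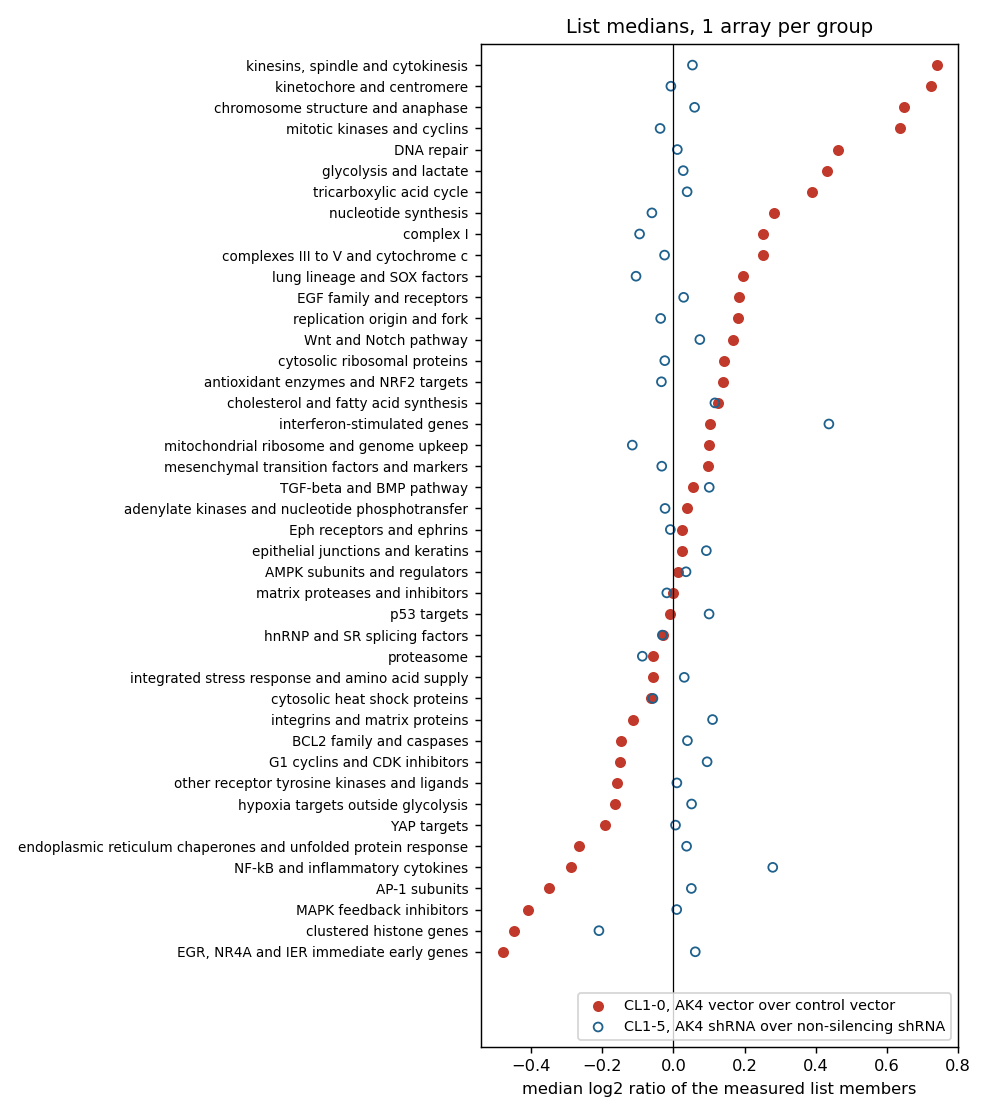
Median log2 ratio of 43 gene lists over their measured genes in the CL1-0 pair (filled red) and the CL1-5 pair (open blue), 1 array per group, sorted by the CL1-0 median. The 4 division lists head the CL1-0 order with CL1-5 medians between -0.04 and 0.06, and the interferon-stimulated list has the highest CL1-5 median, at 0.44 against 0.10.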

How the data were processed

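Total RNA (6 ug per culture) was hybridised to Affymetrix arrays in 1 colour, 1 array for each of 4 groups taken from the genotype labels. The authors deposited 1 intensity per probe set and array, not log-transformed and without detection calls. MAS5 was used, per the submitters' processing notes, with its version, role and scaling target not given in the sources used here. Arrays were scaled here to 1 shared mean, taken after trimming 2% from either end and leaving out 62 control probe sets. Values under the 40th percentile of all scaled values, 6.93 or 2.79 on the log2 scale, were raised to it, and log2 followed. Gene symbols came from the platform annotation and were updated by gene identifier for 99.9% of probe sets. Between probe sets of a gene, log2 ratios had a pooled SD of 0.41, which is no replicate error. Precision is limited by the number of arrays.

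The rule for named genes took AK4, the 20 highest and 20 lowest genes whose measured probe sets all passed 2-fold, ranked by the smallest of their ratios and above the floor on both arrays, and, per list described, at most 8 members past 2-fold in each direction, or the 2 of largest size where none passed. On the lower side 19 genes qualified, of which 1 is not reported here. The members, 43 gene lists and 10 marker lists were chosen with earlier results of these data known. The calculation was run on simulated data, with shifts past 2-fold planted in bright genes alone and less noise than the spread between probe sets. This checks the code and says nothing about the calls made here. Promoters were those of RefSeq on GRCh38.p14, 300 bases each, matched by symbol. Alternatives for scaling, floor and choice of probe set are given in the closing section. Python 3.11.15, pandas 2.3.3 and statsmodels 0.14.6 were used.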

Additional observations from a re-analysis of the deposited data

Results flagged for a closer look

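ATF3 had opposite ratios in the lines, at -1.08 on the labelled AK4 array in CL1-0 and 1.08 with the AK4 shRNA in CL1-5, each from 1 array per group. The difference was not tested. Among probe sets with several or no gene symbol, which entered no comparison above, 5736 of 13522 were measured in CL1-0. Of these, 193 were higher by 2-fold or more on the labelled AK4 array and 64 lower by 2-fold or more. Both shares are close to the 3.29% and 1.17% of all measured genes.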

How the results depend on the processing

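Over 11 alternatives the count of genes higher by 2-fold or more lay between 247 and 518 and that of lower genes between 118 and 202. The higher count was 247 when the mean over all probe sets was used. The genes with all probe sets higher by 2-fold or more numbered 13 after quantile normalization and 12 without the _x_at and _s_at probe sets, and the lower ones then numbered 9. Of 430 list medians 2 moved by more than the spread between probe sets. That spread, 0.41, belongs to single ratios and is wide for list medians, so the count says little about their stability. With the median of probe sets the kinetochore median went from 0.72 to 0.44 uncounted. Without the _x_at and _s_at probe sets the G1 median went from -0.15 to 0.16, also uncounted. Of 142 genes past 2-fold that the naming rule takes over all 43 lists, some of them not described above, 132 kept their direction under every alternative that gave a value and 63 stayed past 2-fold. Signs turned for MET (0.10), HNRNPA3 (-0.18) and COL6A1 (-0.26) with the median of all probe sets. They turned for TGFB1 (0.24), TKT (-0.73), NDUFS7 (-0.36) and COL6A1 (-0.31) without the _x_at and _s_at probe sets, and for HNRNPA3 (-0.35) with the probe set brightest over 4 arrays, an alternative added after seeing the data. The cause was not tested. No paired analysis was possible because each group is 1 array, and leaving out a replicate could not be run for the same reason.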

Other observations

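The gene families described here were picked after their values were seen. Of 13 measured glutathione transferases, enzymes that conjugate glutathione to reactive compounds, 5, or 38.5%, were higher by 2-fold or more on the labelled AK4 array, where 3.29% of all measured genes were. The family median was 0.10, and 6 of the 13 were below 0. GSTA4 was at 1.5, GSTM2 at 1.46, GSTO2 at 1.19, GSTM4 at 1.11 and GSTM1 at 1.04 on the log2 scale. The GSTM genes are near-identical in sequence, so their separate values are uncertain. The abundant GSTP1 was at 1849 on the control array and 1616 on the other, and GSTZ1 was lowest at -0.88. Of 18 measured aldehyde dehydrogenases, 3, or 16.7%, were higher by 2-fold or more against the same 3.29%, and the median was 0.23, with ALDH5A1 at 23.9 and 68.1, ALDH6A1 at 22.5 and 63.8 and ALDH3A2 at 94.5 and 203. A second probe set of ALDH5A1, near the floor, was at -0.18.

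Of 50 measured actin regulators, contractile proteins and caveola genes, 10 were lower by 2-fold or more and 1 higher by 2-fold or more, where 1.17% and 3.29% of all measured genes were, with a median of -0.27. MYL9 was at -1.65, TPM4 at -1.56, ZYX at -1.42, PALLD at -1.24 and PFN1 at -1.15. PFN1, the actin-binding profilin, was at 10012 on the control array and 4511 on the labelled AK4 array. SRF, a factor that drives many of these genes, was at 170 and 93.6, a log2 ratio of -0.86 and so under 2-fold. On the same list MRTFA was at -0.35 and MRTFB at 0.96. The part of these factors was not tested. In the CL1-5 pair 0 of 52 passed 2-fold and the median was 0.03. Of all measured genes in that pair, 0.0802% were higher and 0.0134% lower by as much, so this 0 says little. All 7 genes of the mitochondrial genome with a probe set were above 0, as were 56.2% of all measured genes, and their median was 0.62. COX3 was highest at 123 and 468, read from a dim _x_at probe set. ND6, also dim, was at 51.5 and 114. The bright ND2, ND4, COX1, COX2 and ATP6 lay between 0.54 and 0.70, under 2-fold. All 7 genes were above 0 in CL1-5 too, with a median of 0.17.

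In 5 genes, CHD1L, CNOT3, SREK1, TBRG1 and ZNF107, 1 probe set was higher by 2-fold or more and another lower by 2-fold or more. For TBRG1 the ratios ran from -1.38 to 1.09.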
